A study of Homo sapiens with 6 samples.

Results

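The genes of the MMP, ADAM, ADAMTS and TIMP families were followed in the human ovarian carcinoma cell line SKOV3 after knockdown of SND1, whose protein joins nuclease-like and tudor domains and takes part in transcription and RNA processing. Members were the protein-coding genes whose symbol is MMP, ADAM, ADAMTS or TIMP followed directly by digits, measured by the brightest probe set that carries that symbol alone. This gave 62 of the 22466 genes on the array: 22 MMP, 19 ADAM, 18 ADAMTS and 3 TIMP genes. TIMP2 and MMP23B share their probe sets with other genes and, like ADAM7 and ADAMTS7, are not analysed here. The arrays came from a vector control group, SKOV3 cells stably holding the empty pLKO hairpin vector (n = 3), and a knockdown group, SKOV3 cells stably holding 1 pLKO hairpin against SND1 (n = 3). Both groups grew in the same serum-containing medium without further treatment. The labels do not say whether either stable line is a clone or whether arrays of a group came from separate cultures, so the spread behind each p-value is that between these arrays and may be technical. The first knockdown array has 1 more number in its label than the others, which the labels do not explain.

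Matrix metalloproteinases (MMPs) and the related ADAM and ADAMTS enzymes are zinc-dependent endopeptidases made as inactive precursors, which proprotein convertases or other proteinases activate. MMPs cut collagens and other matrix proteins, ADAMs are membrane proteins of which many shed the outer part of receptors, ligands and adhesion molecules, and ADAMTS enzymes are secreted and cut proteoglycans, procollagens and other matrix proteins. Tissue inhibitors of metalloproteinases (TIMPs) bind the active site of these enzymes and hold them in check. Transcripts were measured in bulk RNA, in which fewer cells with a transcript and less of it per cell cannot be told apart, and neither secreted enzyme nor activity was measured.

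Values are log2 expression as deposited, and differences are knockdown minus control. The highest mean of 23 background control probe sets was 6.28, which is called the background bound here, and a level at or below it is called dim. This is a strict bound, as the lowest of these means was 2.38 and their median 3.11. The median of all array values was 4.16. A dim level may thus still lie above most background probe sets, and dim does not mean undetected. A fold against a dim group is a lower limit, computed against the bound, and no fold is given where both groups were dim. SND1 itself read 8.83, 8.60 and 8.80 in controls and 5.88, 5.70 and 5.99 after knockdown (log2 difference -2.89 ± 0.09 SE, limma adjusted p = 1.3e-06), on a probe set that also covers SND1-IT1. Of 10 measured markers of ovarian carcinoma epithelium 9 lay above the bound in controls and 8 after knockdown. The defining markers of fibroblasts (8 measured) and endothelium (4) were all dim in both groups, and of 6 leukocyte markers only CD68 was not. The mean log2 level of the fibroblast markers was 3.90 to 3.98 across control arrays and 4.05 to 4.17 across knockdown arrays. Of these 8 markers LUM rose (1.85), COL1A1 (-0.44) and COL1A2 (-0.18) fell, and 5 did not pass.

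More members fell than rose. Of the 62 members 18 fell (29%), where 16.1% of all genes fell, and 6 rose (9.68%), where 15.9% of all genes rose, at a Benjamini-Hochberg adjusted p below 0.05 over all genes. Together these were 24 members (38.7%), beside 31.9% of all genes. Of the members 10 fell by at least 1 on the log2 scale (16.1% of members), as did 2.43% of all genes, and 0 members rose by that much. Of these 10, 3 (MMP13, ADAMTS15 and TIMP3) were dim in both groups. With dim levels held at the bound, 4 members (MMP1, MMP16, ADAMTS1 and ADAMTS5; 6.45%) fell at least 2-fold, beside 1.57% of all genes. The median log2 difference was -0.04 over the members and 0.003 over all genes. The groups did not overlap for 30 members (48.4%), close to the 43.6% of all genes. Of these members 22 were lower (35.5% of the 62), beside 21.9% of all genes. The other 8 were higher, as were 4871 of the 22466 genes. These shares describe the members and were not tested as a list.

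Most members were dim. For 46 of the 62 (74.2%) both groups were dim, as they were for 59.4% of all genes. Of the 24 members past the threshold 9 were among these 46. Over all genes 7169 of 22466 passed, 1964 of them among the 13339 that were dim in both groups. Above the bound in both groups were 10 members, and of these 6 fell, 3 rose and 1 did not pass. The matching counts for all genes are not given here, so these are not read as a trait of the members. A further 6 members were above the bound in controls and dim after knockdown, a grouping that itself fixes their direction. The 38 members that did not pass differed by -0.25 to 0.15, and 37 of them were dim in both groups, the exception being ADAM17.

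**Figure D1:**
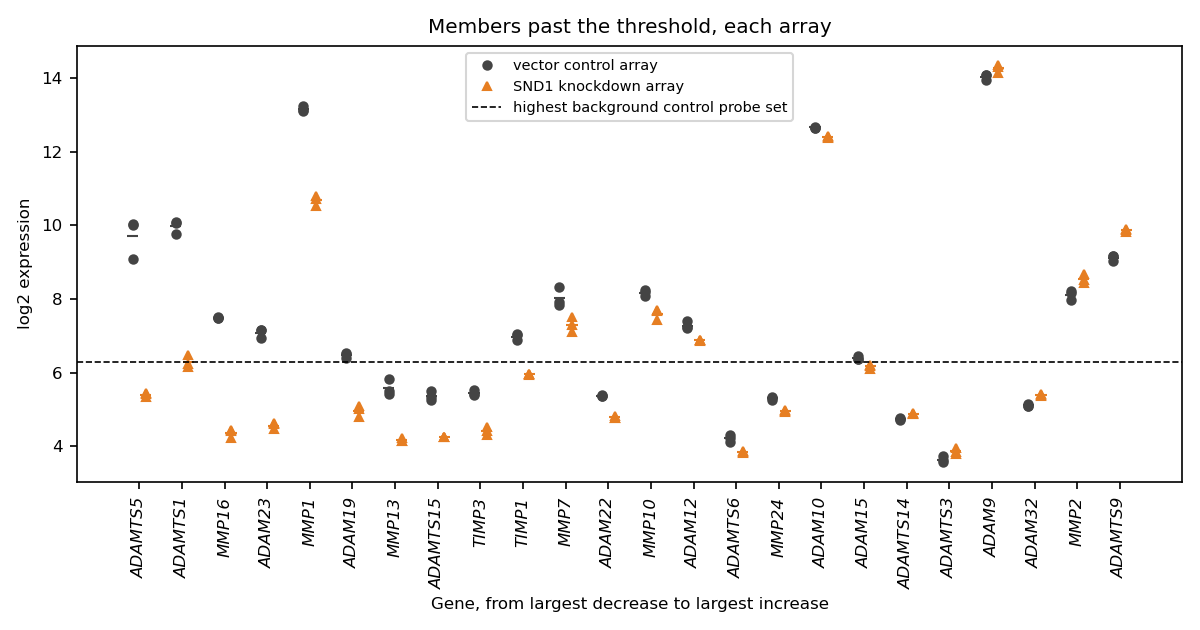
The log2 expression of the 24 members past the threshold on each array (circles, 3 vector control arrays; triangles, 3 SND1 knockdown arrays; short lines, group means), ordered from the largest decrease to the largest increase, with the highest background control mean of 6.28 dashed. The groups are fully separated for all 24, with ADAMTS5 and ADAMTS1 showing the widest gaps, and 9 of the genes lie below the dashed line in both groups.

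Among the collagenases, which cut fibrillar collagen, MMP1 and MMP13 fell. MMP1, interstitial collagenase, read 13.25, 13.13 and 13.10 in controls and 10.52, 10.81 and 10.72 after knockdown. It thus fell 5.56-fold (log2 difference -2.48 ± 0.08 SE, adjusted p = 1.7e-06), and it stayed above the bound on all 6 arrays. MMP13 read 5.50, 5.83 and 5.42 in controls and 4.14, 4.23 and 4.14 after knockdown, a log2 difference of -1.41 ± 0.11 (SE, adjusted p = 6.0e-05) between dim levels. Its groups did not overlap. The third collagenase, MMP8, a neutrophil enzyme, lay at 3.38 ± 0.02 (SD, n = 3) and 3.42 ± 0.02 (SD, n = 3) and did not pass.

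The gelatinases, which degrade denatured collagen and basement membrane collagen, did not move with the collagenases. MMP2 read 7.96, 8.17 and 8.21 in controls and 8.43, 8.67 and 8.51 after knockdown, all 3 knockdown arrays above all 3 controls. It rose 1.34-fold (log2 difference 0.42 ± 0.09 SE, adjusted p = 0.0086), the only MMP gene past the threshold in that direction. MMP9 was dim at 3.95 ± 0.02 and 3.89 ± 0.04 (SD, n = 3 each), with a log2 difference of -0.07 (95% interval -0.17 to 0.04, adjusted p = 0.35).

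Of the stromelysins and matrilysins, 1 each fell, where 16.1% of all genes fell. MMP10, stromelysin-2, which can activate other MMP precursors, read 8.07, 8.20 and 8.25 in controls and 7.42, 7.68 and 7.71 after knockdown, a 1.48-fold fall (-0.57 ± 0.09 SE, adjusted p = 0.0024). MMP7, matrilysin, a small secreted enzyme of epithelia, read 8.32, 7.93 and 7.84 in controls and 7.10, 7.50 and 7.30 after knockdown, a 1.66-fold fall (-0.73 ± 0.15 SE, adjusted p = 0.0078). MMP7 had the widest spread between arrays of these genes, though its lowest control still lay above its highest knockdown array. MMP3, MMP11 and MMP26 were dim in both groups, at log2 differences between -0.07 and 0.01, and did not pass.

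Membrane-type MMPs are anchored at the cell surface, where several of them activate the MMP2 precursor. MMP16 (MT3-MMP) read 7.51, 7.48 and 7.48 in controls and 4.23, 4.45 and 4.43 after knockdown, so every control array was above the bound and every knockdown array below it. The fall was at least 2.31-fold (-3.12 ± 0.07 SE on the log2 scale, adjusted p = 3.0e-07). MMP24 (MT5-MMP), dim in both groups, fell by 0.35 (log2 units, adjusted p = 0.00099). MMP14 (MT1-MMP), the best known activator of MMP2, was dim at 3.86 ± 0.06 and 3.81 ± 0.01 (SD, n = 3 each) and differed by -0.04 (95% interval -0.16 to 0.07, adjusted p = 0.61). MMP15, MMP17 and MMP25 did not pass, with differences of -0.07 to 0.06. The 6 remaining MMP genes, MMP12, MMP19, MMP20, MMP21, MMP27 and MMP28, were dim as well and did not pass. MMP12 (-0.25, adjusted p = 0.11) and MMP28 (0.15, adjusted p = 0.08) came nearest, and their groups did not overlap.

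**Figure D2:**
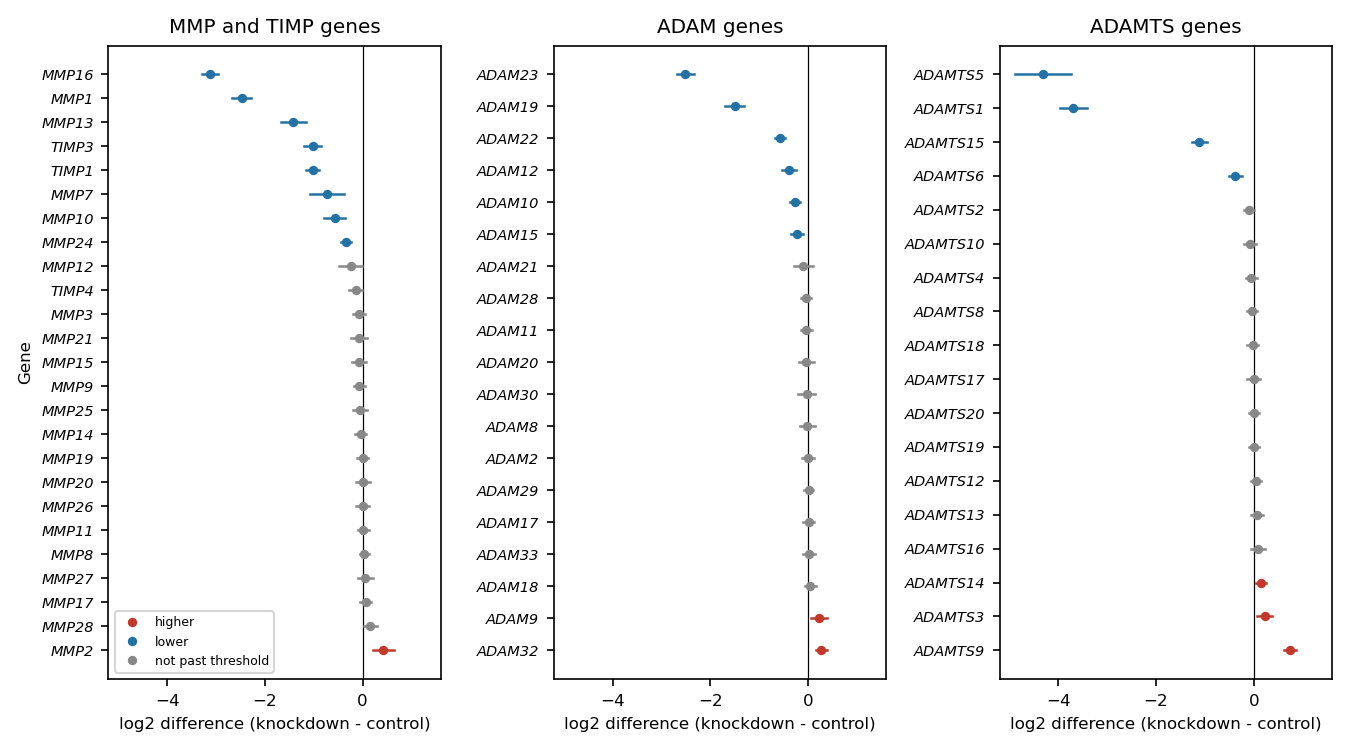
Fitted log2 difference (SND1 knockdown minus vector control) of each of the 62 members with its 95% interval, in 3 panels for the MMP and TIMP genes, the ADAM genes and the ADAMTS genes, coloured by whether the gene passed the threshold and in which direction. Each panel has a tail of decreases, down to -4.31 for ADAMTS5, while no increase exceeds the 0.75 of ADAMTS9.

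The 4 secreted MMP genes that fell lie in 1 cluster on chromosome 11. The 9 measured MMP genes of this cluster run in the order MMP7, MMP20, MMP27, MMP8, MMP10, MMP1, MMP3, MMP12 and MMP13, with WTAPP1 between MMP10 and MMP1. Of these 9 genes 4 fell and 0 rose, and 5 did not pass, where 16.1% of all genes fell. Both groups were dim for 6 of the 9. Of the 21 measured non-member genes between them or up to 10 places away on either side, 11 fell, 2 rose and 8 did not pass (median -0.22). Of these 21 neighbours 11 were dim in both groups, among them 4 of those that fell. The transcriptional coactivator gene YAP1 differed by -0.95 ± 0.05 (SE) and the apoptosis inhibitor gene BIRC2 by -1.06 ± 0.05, both ahead of MMP7 in this order, and DCUN1D5 and DYNC2H1, just past MMP13, by -0.60 and -0.57. The decreases of MMP7 (-0.73) and MMP10 (-0.57) lay within the range of the neighbours that fell. That of MMP13 (-1.41, dim in both groups) was passed among the neighbours by ARHGAP42 (-2.30) alone, and that of MMP1 (-2.48) was larger than any of theirs. The part of the region in the members' decreases was not tested.

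**Figure D3:**
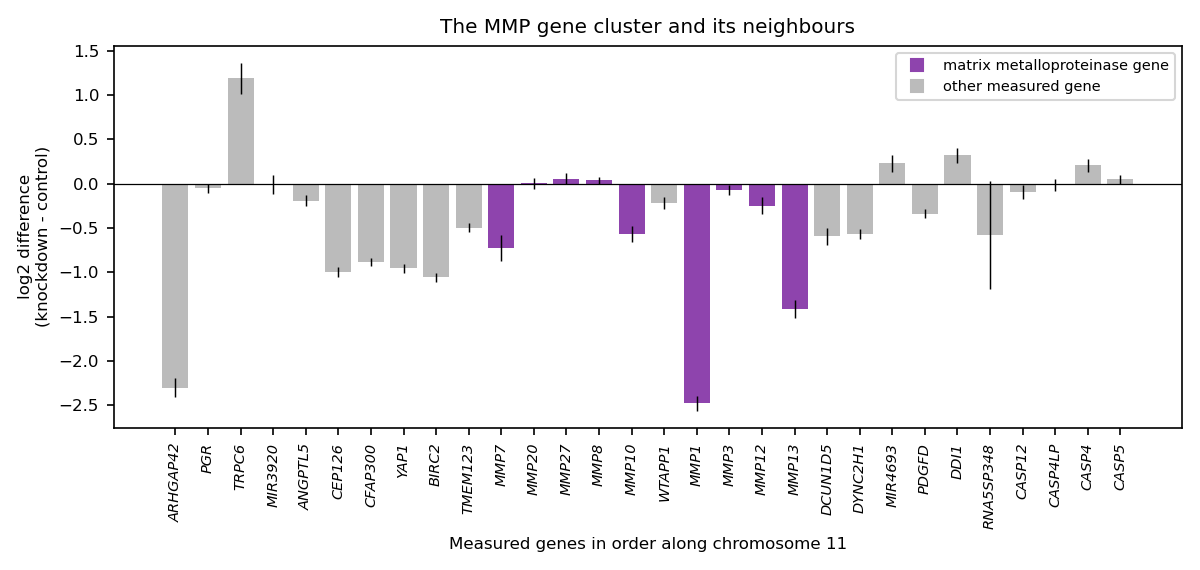
Fitted log2 difference (bars, with SE) of the measured genes in order along chromosome 11, with the 9 MMP genes of the cluster in purple and 21 other genes in grey. MMP1 shows the largest decrease among the MMP genes at -2.48, the 5 grey bars next to MMP7 on its left lie between -0.50 and -1.06, and ARHGAP42 (-2.30) and TRPC6 (1.19) mark the extremes of the neighbours.

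Promoters are shown for members that fell and whose window is in the RefSeq table, 37 of the 62 members and 12 of the 18 that fell having one (build GRCh38.p14, 250 bases before to 50 after the gene start). MMP1, MMP13, MMP16, ADAMTS1 and ADAMTS5 are not among these. MMP7 and MMP10 are the members of the chromosome 11 cluster that fell and have a window, ADAM19 is the only one of the 12 whose window holds the E-box searched, and TIMP1 is an inhibitor that fell. Capitals mark matches on either strand to 4 motifs: TGAGTCA (the AP-1 element), CACCTG (an E-box bound by SNAI and ZEB factors), TATAAA (the TATA box) and GGGCGG (the GC box, CCGCCC on the other strand). None of these motifs overlaps another in the windows printed.
MMP7 (chr11:102530698-102530997, minus strand): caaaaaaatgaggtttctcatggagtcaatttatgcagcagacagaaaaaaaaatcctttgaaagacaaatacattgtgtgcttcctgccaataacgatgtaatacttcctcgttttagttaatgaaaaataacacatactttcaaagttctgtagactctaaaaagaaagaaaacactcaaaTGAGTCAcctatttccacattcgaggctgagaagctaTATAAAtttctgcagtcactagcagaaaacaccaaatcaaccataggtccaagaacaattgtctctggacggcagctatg
MMP10 (chr11:102780579-102780878, minus strand): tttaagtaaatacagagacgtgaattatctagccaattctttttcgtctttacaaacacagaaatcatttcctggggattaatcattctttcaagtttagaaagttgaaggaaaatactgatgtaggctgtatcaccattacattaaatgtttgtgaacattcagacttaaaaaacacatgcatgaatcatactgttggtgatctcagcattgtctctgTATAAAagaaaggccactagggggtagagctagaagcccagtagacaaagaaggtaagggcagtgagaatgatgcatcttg
ADAM19 (chr5:157575726-157576025, minus strand): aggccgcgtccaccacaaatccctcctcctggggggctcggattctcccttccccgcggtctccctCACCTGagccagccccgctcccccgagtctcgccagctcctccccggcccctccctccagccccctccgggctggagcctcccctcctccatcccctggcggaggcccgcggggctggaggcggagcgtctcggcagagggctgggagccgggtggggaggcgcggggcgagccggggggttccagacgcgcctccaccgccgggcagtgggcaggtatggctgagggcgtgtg
TIMP1 (chrX:47582186-47582485, plus strand): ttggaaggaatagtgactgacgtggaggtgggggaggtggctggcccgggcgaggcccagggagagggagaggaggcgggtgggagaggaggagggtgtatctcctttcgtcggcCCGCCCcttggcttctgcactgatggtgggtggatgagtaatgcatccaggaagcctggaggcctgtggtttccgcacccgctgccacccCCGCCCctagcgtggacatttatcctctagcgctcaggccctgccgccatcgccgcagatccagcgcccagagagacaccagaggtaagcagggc

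The MMP7 window holds an AP-1 element that starts at -67 from the gene start and a TATA box at -30, and the MMP10 window holds a TATA box at -31. In the ADAM19 window the E-box starts at -184. The TIMP1 window holds 2 GC boxes on the opposite strand, at -135 and -45. The AP-1 element was present in 1 of 37 member windows, that of MMP7, and in 4.92% of all 27305 windows of this length. The E-box was present in 1 of 12 windows of members that fell, in 8 of 23 of members that did not pass and in 20.6% of all windows. A TATA box was present in 2 of the 12, in 6 of the 23 and in 12% of all windows. GC boxes were present in 8 of the 12, in 14 of the 23, in both windows of members that rose and in 44.6% of all windows. These are matches of letters and not measured binding.

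In the ADAMTS family the hyalectan-cleaving enzymes, which cut versican, aggrecan and related proteoglycans, held the largest changes. Of 7 measured, 3 fell and 1 rose, where 16.1% of all genes fell and 15.9% rose. ADAMTS5, the main aggrecan-cleaving enzyme of cartilage in mice, read 9.07, 10.03 and 10.02 in controls and 5.45, 5.41 and 5.34 after knockdown. This was a fall of at least 10.7-fold (-4.31 ± 0.24 SE on the log2 scale, adjusted p = 1.6e-05). The first control array was the lowest of the 3, yet it lay far above all knockdown arrays.

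ADAMTS1, which cleaves versican and aggrecan, read 9.76, 10.10 and 10.07 in controls and 6.22, 6.46 and 6.16 after knockdown. It fell (log2 difference -3.69 ± 0.12 SE, adjusted p = 1.3e-06) to a mean of 6.28, at the bound itself, so no exact fold is given. With all levels under the bound raised to it, the log2 difference was -3.63 for ADAMTS1 and -3.43 for ADAMTS5, so the order of these decreases turned. The controls of ADAMTS1, too, were lowest in the first array. ADAMTS1 and ADAMTS5 lie next to each other on chromosome 21. Of the 20 measured genes around this pair, 4 rose and 2 fell, where 15.9% of all genes rose and 16.1% fell. Their median difference was 0.05, with a range of -0.36 to 0.67. The part of the region in the decreases of the pair was not tested.

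ADAMTS9, another versican-cleaving enzyme, went the other way. It read 9.16, 9.04 and 9.15 in controls and 9.90, 9.87 and 9.83 after knockdown, a 1.68-fold rise (0.75 ± 0.05 SE, adjusted p = 4.4e-05) and the largest increase of any member. The antisense transcript ADAMTS9-AS2, no member, was higher by 0.33 ± 0.07 (SE, adjusted p = 0.0076) at dim levels. ADAMTS15 read 5.49, 5.33 and 5.27 in controls and 4.24, 4.26 and 4.24 after knockdown, and fell by 1.12 (log2 units, dim in both groups, adjusted p = 1.9e-05). ADAMTS4, ADAMTS8 and ADAMTS20 did not pass, at -0.05 to 0.002. VCAN, encoding versican, the substrate these enzymes share, fell 1.38-fold from 14.76 ± 0.08 (SD, n = 3, adjusted p = 0.00099). It was the only 1 of 6 listed ADAMTS substrates that passed, where 31.9% of all genes passed, and the other 5 were dim in both groups.

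The procollagen aminopropeptidases trim the amino-terminal propeptide of fibrillar procollagens. ADAMTS3 (0.22, adjusted p = 0.039) and ADAMTS14 (0.14, adjusted p = 0.042) rose at dim levels, and ADAMTS2 differed by -0.09 (adjusted p = 0.17). The call of ADAMTS14 ended without any 1 of the 6 arrays (adjusted p = 0.069 to 0.12), after median centring (0.072), after renewed quantile normalization (0.1) and with a variance prior that follows the level (0.051). That of ADAMTS3 ended without the first or the third control or the first or the third knockdown array (adjusted p = 0.12, 0.11, 0.067 and 0.11). Of the 7 other ADAMTS genes ADAMTS6 fell by 0.38 (log2 units, dim in both groups, adjusted p = 0.0022). The remaining 6, among them ADAMTS13, the proteinase of von Willebrand factor, were dim and did not pass, and neither did the COMP-cleaving ADAMTS12 (0.04).

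Among ADAM genes, the 12 that encode active proteinases by textbook knowledge numbered 4 lower and 1 higher. Over all genes 16.1% fell and 15.9% rose, and counts in sets this small were not tested. ADAM10, a sheddase of Notch receptors and of classical cadherins, read 12.65, 12.65 and 12.67 in controls and 12.43, 12.39 and 12.37 after knockdown. This was a small fall of 1.2-fold (-0.26 ± 0.04 SE, adjusted p = 0.0029), and the groups did not overlap. ADAM17, the sheddase of tumour necrosis factor and of several EGF receptor ligands, read 10.31, 10.35 and 10.38 in controls and 10.37, 10.40 and 10.29 after knockdown. The groups overlapped, and the log2 difference of 0.008 had a 95% interval of -0.11 to 0.13 (adjusted p = 0.94), so a change within that interval could not be seen.

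ADAM19, also called meltrin beta, read 6.40, 6.52 and 6.50 in controls and 5.02, 4.79 and 5.09 after knockdown. The fall was at least 1.14-fold (-1.51 ± 0.08 SE on the log2 scale, adjusted p = 1.4e-05), a low limit because the controls lay just above the bound. ADAM12 (meltrin alpha) read 7.20, 7.23 and 7.39 in controls and 6.87, 6.90 and 6.85 after knockdown, a 1.32-fold fall (-0.40 ± 0.06 SE, adjusted p = 0.002). ADAM15 fell by 0.23 (log2 units) from just above the bound (adjusted p = 0.014), a call that ended without the third control array (adjusted p = 0.055). ADAM9, a widely expressed member, read 13.95, 14.07 and 14.08 in controls and 14.15, 14.34 and 14.29 after knockdown, a 1.17-fold rise (0.22 ± 0.07 SE, adjusted p = 0.042). That call ended without the first, the second or the third control array (adjusted p = 0.13, 0.08 and 0.071), without the second or the third knockdown array (0.12 each) and after median centring (0.073) or renewed quantile normalization (0.061). The other 6 proteinase genes besides ADAM17, which are ADAM8, ADAM20, ADAM21, ADAM28, ADAM30 and ADAM33, were dim and did not pass.

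Of the 7 ADAM genes whose proteins lack an active zinc site by textbook knowledge, 2 fell and 1 rose. The shares over all genes were 16.1% and 15.9%. ADAM23, a neuronal receptor for secreted LGI proteins, read 6.95, 7.15 and 7.15 in controls and 4.47, 4.59 and 4.62 after knockdown. This was at least a 1.74-fold fall (-2.52 ± 0.07 SE on the log2 scale, adjusted p = 1.0e-06). Its relative ADAM22, likewise an LGI receptor, fell by 0.58 (log2 units, dim in both groups, adjusted p = 6.8e-05). ADAM32, known from testis, rose by 0.27 (dim in both groups, adjusted p = 0.0032). ADAM2, ADAM11, ADAM18 and ADAM29 did not pass, at -0.05 to 0.05.

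Of the 3 measured TIMP genes 2 fell and 1 did not pass, where 16.1% of all genes fell. TIMP1, a soluble inhibitor of most MMPs, read 6.88, 7.01 and 7.04 in controls and 5.94, 5.97 and 5.97 after knockdown, and it fell at least 1.62-fold (-1.02 ± 0.06 SE, adjusted p = 1.4e-05). TIMP3, which binds the matrix and also inhibits ADAM17 and several ADAMTS enzymes, read 5.41, 5.38 and 5.53 in controls and 4.53, 4.29 and 4.43 after knockdown. It fell by 1.02 (log2 units, dim in both groups, adjusted p = 4.9e-05). TIMP4 lay at 3.47 ± 0.03 and 3.33 ± 0.09 (SD, n = 3 each), dim in both groups, and did not pass (-0.14, adjusted p = 0.11), although its groups did not overlap.

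**Figure D4:**
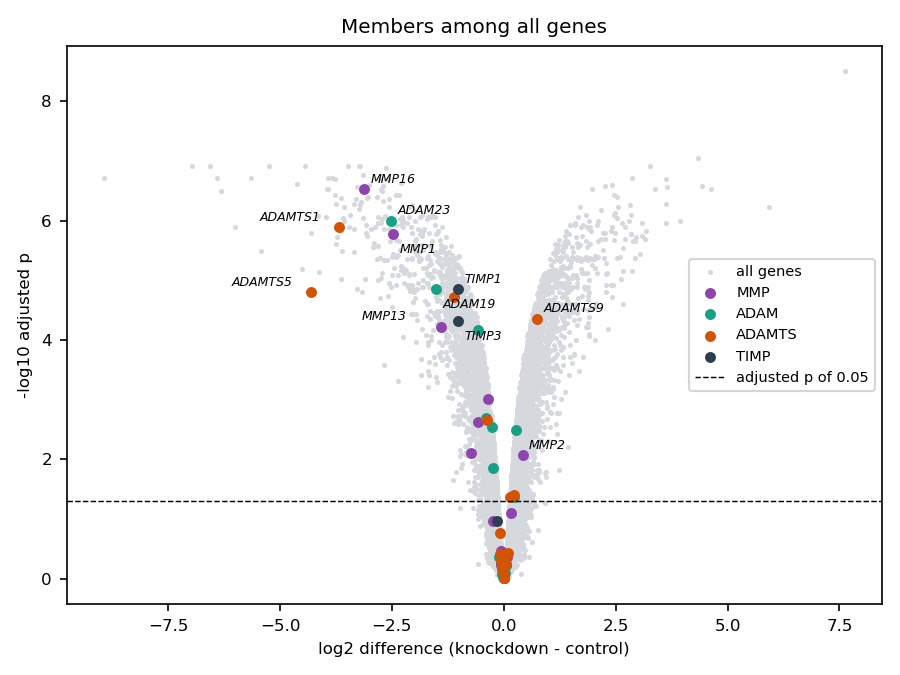
Fitted log2 difference (x axis) against -log10 adjusted p (y axis) for all 22466 genes (grey) and the 62 members (coloured by family), with the adjusted p of 0.05 dashed. The members with the largest changes, ADAMTS5, ADAMTS1, MMP16, ADAM23 and MMP1, lie on the left side, and ADAMTS9 and MMP2 are the labelled genes on the right.

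Beyond the families, 41 of 43 listed genes that activate, regulate, resemble or are cut by these enzymes were measured, and 7 rose (17.1%) and 13 fell (31.7%), beside 15.9% and 16.1% of all genes (median difference of the 41 genes -0.03). Of the convertases that activate proenzymes, FURIN read 9.20, 9.08 and 9.16 in controls and 10.32, 10.29 and 10.19 after knockdown, a 2.17-fold rise (1.12 ± 0.06 SE, adjusted p = 1.0e-05). PCSK5 rose 1.69-fold, and PCSK7 did not pass (-0.17, adjusted p = 0.089). FURIN is known to remove the prodomain of membrane-type MMPs, ADAMs and ADAMTS enzymes.

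Among 9 regulators of ADAM10 and ADAM17, 1 rose and 5 fell, where 15.9% of all genes rose and 16.1% fell. Both of the widest changes were in tetraspanins that escort ADAM10 to the cell surface, and they ran in opposite directions. TSPAN5 read 7.67, 7.85 and 7.83 in controls and 5.18, 5.16 and 5.29 after knockdown, a fall of at least 2.83-fold (-2.57 ± 0.07 SE, adjusted p = 6.0e-07). TSPAN15 rose 2.09-fold from 8.62 ± 0.13 (SD, n = 3), a log2 difference of 1.06 ± 0.09 (SE, adjusted p = 9.5e-05). TSPAN17 and TSPAN14 fell by 0.55 and 0.21 on the log2 scale, and TSPAN10, dim in both groups, by 0.52. The rhomboid-like gene RHBDF1, whose protein supports ADAM17 maturation, fell by 0.29 at dim levels, and RHBDF2 and FRMD8 did not pass.

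Of 8 inhibitors and inducers 2 rose and 2 fell, where 15.9% of all genes rose and 16.1% fell. RECK, a membrane-anchored inhibitor of several MMPs, read 8.14, 8.31 and 8.43 in controls and 6.59, 6.68 and 6.72 after knockdown, a 3.1-fold fall (-1.63 ± 0.08 SE, adjusted p = 9.0e-06). SPOCK1, a testican proteoglycan gene, fell at least 2.13-fold. BSG (basigin), known as an inducer of MMP expression, rose 1.43-fold and TFPI2, a Kunitz-type inhibitor of serine proteinases, rose 1.73-fold. LRP1, an endocytic receptor that clears several of these enzymes and TIMPs, fell by 1.25 (log2 units, dim in both groups, adjusted p = 4.8e-05). Among 14 related enzymes and homologues 2 rose and 4 fell, again beside 15.9% and 16.1% of all genes. Of those that passed 3 were dim in both groups. PAPLN (papilin), a matrix protein that resembles ADAMTS proteins, rose 1.85-fold, and BMP1, a procollagen carboxypropeptidase, fell 1.19-fold.

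**Figure D5:**
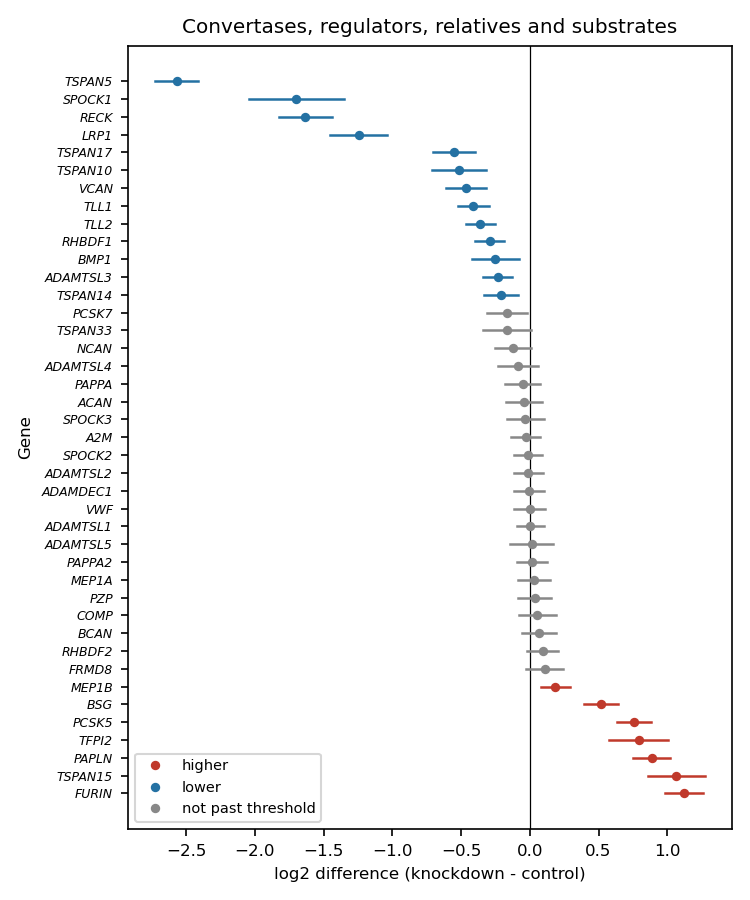
Fitted log2 difference (SND1 knockdown minus vector control) with its 95% interval for 41 genes of convertases, regulators, relatives and substrates, coloured by whether each passed the threshold and in which direction. The changes run from -2.57 for TSPAN5 to 1.12 for FURIN, and 21 of the genes did not pass.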

How the data were processed

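The authors deposited log2 expression per probe set for 6 single-colour transcriptome arrays, and the submitters' processing notes name RMA (background correction, quantile normalization and summary of probes) without a version. Deposited values ran from 1.85 to 19.9, with 4457 above 16, more than a 16-bit scanner can record, so fold sizes depend on an unstated scale. Scanner files and detection calls were not used here. Of 70523 probe sets 23781 carried 1 symbol. Entrez identifiers of 21497 matched the reference gene table, which changed 0 symbols. Each gene was taken from its brightest probe set (every member has only 1). SND1 was kept although its probe set is shared. The moderated test of limma 3.58.1 (lmFit, then eBayes, R 4.3.3) was run over 22466 genes, without filter or covariate, 2-sided, with Benjamini-Hochberg adjustment over all genes at 0.05. SD is over 3 arrays, and their number limits precision. The steps were tested on simulated data. The background rule is an addition made with values known. Genes named were SND1, members past the threshold, fixed members, and pathway genes by smallest adjusted p. VCAN, the cluster's neighbours and the remaining genes were named after their values were seen. The members, lists and tests were chosen with earlier results of these data known. The planned split of ADAMs by a protein motif was replaced by textbook knowledge. Alternatives covered normalization, a filter, a floor, the variance prior, probe sets per gene, pairing and single arrays.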

Additional observations from a re-analysis of the deposited data

How the results depend on the processing

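Of the 24 members past the threshold, 20 kept their call without each single array, and the same number kept it under each of the 14 alternatives but the background floor, wherever the alternative tested the gene. The exceptions were ADAM15, ADAM9, ADAMTS3 and ADAMTS14. With levels under 6.28 raised to it, which by construction removes differences between dim levels, 10 members fell and 1, ADAMTS9, rose, beside 1882 and 2130 of all genes and 6 lower pathway genes. MMP2, MMP7 and ADAM9, above that level in both groups, also missed the threshold there (limma adjusted p = 0.071, 0.082 and 0.14). Their log2 differences were unchanged (0.42, -0.73 and 0.22). The floor also acts on the variance prior that limma shares over genes and on the adjustment. Counts under the floor thus do not reflect dim levels alone, and the part of each step was not tested. Without single arrays 17 to 18 members fell and 3 to 4 rose, the latter being 3 without the first or the third control or the third knockdown array. Median centring and renewed quantile normalization gave 4 members higher and 18 lower each. The sign of ADAM17 turned under renewed quantile normalization (-0.011) and without single arrays (-0.016 to 0.040). The median difference of all genes was 0.0002 after median centring and -0.0068 after renewed quantile normalization. The labels do not say whether same-numbered arrays of the groups are pairs. Deviations of same-numbered arrays correlated at -0.062 to -0.020 and those of the other pairings at -0.033 to 0.073. These ranges overlap, so the check does not decide it. With the replicate block 4 members rose (ADAMTS3 and ADAMTS14 missed the threshold, at adjusted p = 0.08 and 0.13), 18 fell, and 3094 and 3137 of all genes rose and fell. The limits are 3 arrays a group, 1 hairpin and dim signals.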

Other observations

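Genes outside the members carried related symbols. The pseudogene ADAM1A read 5.99 ± 0.10 in controls and 6.75 ± 0.23 after knockdown (SD, n = 3 each), and rose at least 1.39-fold (limma adjusted p = 0.0021). The transcribed pseudogenes ADAM3A, ADAM5 and ADAM6 were dim in both groups and did not pass. The antisense transcript ADAMTS9-AS1 was dim too and did not pass, unlike ADAMTS9-AS2. MMP24-AS1 read 6.77 ± 0.07 and 6.59 ± 0.08 (adjusted p = 0.057) and did not pass.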
